A study of Mus musculus with 6 samples.

Results

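The nuclear genes for the subunits of the mitochondrial respiratory chain and the ATP synthase were followed in migratory type 1 conventional dendritic cells (cDC1), a lineage specialised in cross-presentation of captured antigen to CD8 T cells. The members were all genes with a symbol of the Nduf (a, b, c, s and v), Sdh, Uqcr, Cox (subunits 4 to 8) and Atp5 families, and measured values play no part in that rule. They came to 85 of the 12780 genes measured. There were 34 subunits of complex I, 7 complex I assembly factors whose symbols share the prefix, 4 subunits of complex II, 8 of complex III, 15 of complex IV and 17 of complex V, the ATP synthase. Ndufa4, named after complex I but known as a subunit of complex IV, was counted with complex IV.

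The arrays held 3 samples of anti-CD40 stimulated cDC1 and 3 samples of unstimulated cDC1. Both groups were wild-type C57BL/6 cells from skin draining lymph nodes, sorted as XCR1+ and CD40+ migratory cells that were MHC IIhigh and CD11cint and lacked B220, CD326 and Sirpa, so the CD40+ gate applied to the unstimulated cells too. The labels call the samples biological replicates and are silent on whether different mice gave them. The p-values therefore measure the spread among these samples, part of which may be technical. The age and number of the mice, and the dose, the time and the setting (animal or culture) of the stimulation, are not stated in the labels.

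As background, complexes I and II pass electrons from NADH and succinate to ubiquinone, complex III passes them on to cytochrome c, and complex IV gives them to oxygen. Complexes I, III and IV pump protons across the inner mitochondrial membrane, and complex V makes ATP as the protons flow back. The core of complexes I, III, IV and V is built partly from subunits encoded in mitochondrial DNA, so the nuclear members have to be made in step with these. Dendritic cells that respond to microbial stimuli are known to draw more of their energy from glycolysis, and CD40 is a receptor for help from CD4 T cells.

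Many genes of the respiratory chain are known targets of the transcription factors NRF1, GABPA and YY1, so the promoters were searched for their core letters. The search covered 250 bases before to 50 bases after the gene start on both strands, in RefSeq sequences of the build GRCm38.p6, and 70 of the 85 members had an entry. The NRF1 letters (GCGCA, any base, then GCGC) were in the promoters of 18 of these 70 members (25.7%), against 1402 of all 27025 genes with an entry (5.19%) and 4.60% of all promoters. The letters CCGGAAG, which GABPA and other ETS factors bind, were in 18 of the 70 (25.7%), against 9.93% of all genes and 8.86% of all promoters. The YY1 letters AAGATGGC were in 10 of the 70 (14.3%), against 3.19% of all genes and 2.75% of all promoters. At least 1 of the 3 motifs, which do not overlap each other in the promoters printed here, was present in 40 of the 70 members (57.1%), against 16.4% of all genes. A match is a description of letters and not a binding site. All genes with an entry include genes not measured on these arrays, unlike the members. Shares among the measured genes were not counted, so an excess particular to the members is not read from these values.

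The promoters of the 4 members with the most positive and the 2 with the most negative difference between stimulated and unstimulated cells, among those with an entry, are shown as examples, though no member passed the threshold. They read 5′ to 3′ on the gene's strand, with the matched letters in capitals.
Ndufs5, chr4:123718137-123718436, minus strand: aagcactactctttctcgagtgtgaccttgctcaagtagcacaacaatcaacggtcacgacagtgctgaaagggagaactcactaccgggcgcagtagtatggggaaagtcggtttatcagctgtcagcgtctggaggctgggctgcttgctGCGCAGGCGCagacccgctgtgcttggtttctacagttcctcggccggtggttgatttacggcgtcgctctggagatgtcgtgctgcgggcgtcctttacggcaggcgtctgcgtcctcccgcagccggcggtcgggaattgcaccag
Atp5d, chr10:80142025-80142324, plus strand: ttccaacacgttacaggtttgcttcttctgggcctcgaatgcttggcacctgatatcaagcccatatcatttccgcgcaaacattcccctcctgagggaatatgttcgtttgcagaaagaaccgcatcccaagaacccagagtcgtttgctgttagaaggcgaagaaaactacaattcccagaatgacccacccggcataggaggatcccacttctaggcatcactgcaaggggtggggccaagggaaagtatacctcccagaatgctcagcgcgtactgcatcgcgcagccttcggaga
Ndufa5, chr6:24527477-24527776, minus strand: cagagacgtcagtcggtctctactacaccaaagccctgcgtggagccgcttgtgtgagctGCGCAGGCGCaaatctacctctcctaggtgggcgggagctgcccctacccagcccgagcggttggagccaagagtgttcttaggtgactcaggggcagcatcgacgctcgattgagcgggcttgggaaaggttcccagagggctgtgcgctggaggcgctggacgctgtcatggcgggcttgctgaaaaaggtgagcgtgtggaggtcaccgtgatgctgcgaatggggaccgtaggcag
Cox6a1, chr5:115348909-115349208, minus strand: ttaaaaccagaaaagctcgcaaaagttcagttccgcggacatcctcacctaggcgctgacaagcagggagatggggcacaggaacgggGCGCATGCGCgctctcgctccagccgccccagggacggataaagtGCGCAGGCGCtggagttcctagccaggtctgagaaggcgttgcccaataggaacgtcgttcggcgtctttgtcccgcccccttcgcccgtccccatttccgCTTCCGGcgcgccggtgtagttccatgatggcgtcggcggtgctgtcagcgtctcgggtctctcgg
Sdha, chr13:74350191-74350490, minus strand: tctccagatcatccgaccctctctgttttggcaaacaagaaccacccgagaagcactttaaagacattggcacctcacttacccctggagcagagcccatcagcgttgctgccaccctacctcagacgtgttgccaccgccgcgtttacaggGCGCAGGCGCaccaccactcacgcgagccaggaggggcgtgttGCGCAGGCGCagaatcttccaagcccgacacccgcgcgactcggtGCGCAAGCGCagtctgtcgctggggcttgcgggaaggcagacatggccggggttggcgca
Uqcrfs1, chr13:30545267-30545566, minus strand: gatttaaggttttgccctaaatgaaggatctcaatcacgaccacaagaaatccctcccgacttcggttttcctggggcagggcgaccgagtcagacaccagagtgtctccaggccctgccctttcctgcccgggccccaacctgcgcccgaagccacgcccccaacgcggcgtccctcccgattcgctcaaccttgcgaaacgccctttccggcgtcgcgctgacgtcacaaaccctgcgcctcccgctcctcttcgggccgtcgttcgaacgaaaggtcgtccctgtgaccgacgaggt
The NRF1 letters stood once in Ndufs5, from position -98 relative to the start, and once in Ndufa5, from position -190. Where a gene had several promoters, the first listed with a match is shown, or the first listed where none had one. Cox6a1 held them at 2 places and the ETS letters once, on the opposite strand from position -16. Sdha, whose difference was negative, held the NRF1 letters at 3 places. Atp5d and Uqcrfs1 held no match in this window, so matches were found at both ends of the order. The median log2 difference was 0.20 in the 18 members with the NRF1 letters, of which 13 were positive, and 0.09 in the 52 without them, of which 40 were positive.

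The arrays differed among themselves before any comparison of groups. Median intensities of the arrays ran from 51.9 to 56.3, and the interquartile range of log2 intensities over the genes lay between 1.75 and 2.31 in stimulated arrays and between 1.74 and 2.19 in unstimulated arrays. Across the 85 members, arrays with the same replicate number in both groups correlated with Pearson's r of 0.993 for number 1, 0.986 for number 2 and 0.979 for number 3, while pairs of arrays within a group ran from 0.919 to 0.973. The pair of unstimulated replicate 3 and stimulated replicate 2 also had an r of 0.979, so number 3 was not set apart. These correlations are descriptions across genes that share each array. Among cDC1 identity markers 9 of 10 were measured, with a median log2 difference of 0.20. Among T cell markers 6 of 10 were measured, and all 6 differences were positive (median 0.52, 0 past the threshold). Their summed intensity was 195 to 382 in stimulated and 157 to 253 in unstimulated arrays, and their part in the results was not tested. Of 7 markers of cDC2 and Langerhans cells 4 were measured, with 3 differences positive (median 0.31) and a summed intensity of 133 to 180 in stimulated and 118 to 127 in unstimulated arrays. Epcam, which encodes the CD326 that the sort excluded, was at 5.31 in stimulated and 4.74 in unstimulated cells, without overlap (unadjusted limma p 0.0176, adjusted p 0.999975). Sirpa was at 4.83 and 4.67, also without overlap (unadjusted limma p 0.344), while Cd207 had a difference of -0.07. Over all genes, 3.68% were higher without overlap and 2.07% higher at an unadjusted limma p under 0.05. Epcam and Sirpa were dim, below the array medians over all genes of 5.63 to 5.80. The part of these 4 markers was not tested either. Dendritic cell maturation markers had 8 of 8 differences positive (median 0.48), with Cd86 at 11.11 in stimulated and 9.57 in unstimulated cells (limma adjusted p 0.208), and 0 passed the threshold. The values are from bulk RNA, in which fewer cells of a type and less RNA per cell cannot be told apart.

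Anti-CD40 stimulated and unstimulated cDC1 did not differ detectably in any subunit or assembly factor of the respiratory chain and ATP synthase. Of 85 members, 0 were called higher and 0 lower (limma, Benjamini-Hochberg adjusted p under 0.05 over all 12780 genes), where 0.0156% of all genes were called higher and 0% lower, and the smallest adjusted p of a member was 0.999975. The largest difference in size was 0.81 on the log2 scale, for Ndufs5, and 0 members differed by 1 or more. At an unadjusted p under 0.05 there was 1 member higher and 0 lower, which is 1 of 85 beside 2.07% of all genes higher and 1.42% lower. The groups did not overlap for 2 members, Ndufs5 and Ndufaf7, both higher in stimulated cells, beside 3.68% of all genes higher and 3.46% lower, so these counts are near the background.

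The 95% intervals say how large a difference these arrays could have missed in a fit that takes the arrays of a group as independent. For 65 of the 85 members (76.5%) the whole interval lay within a 2-fold change either way, beside 77.9% of all genes and 58.9% of the 3195 genes with the highest mean level. For the other 20 it reached past 2-fold, upward in 17 and downward in 6, with both in some of them. The half-width of the interval had a median of 0.71 on the log2 scale and ran from 0.36 to 1.33, against a median of 0.52 over all genes and 0.68 over those 3195. With the replicate number as a block the median half-width of the members was 0.38, and 82 of the 85 intervals lay within 2-fold, beside 93.1% of all genes. By complex, the interval stayed within 2-fold for 26 of 34 complex I subunits, 6 of 7 assembly factors, 3 of 4 members of complex II, 6 of 8 of complex III, 13 of 15 of complex IV and 11 of 17 of complex V. The least precise members were Atp5d and Ndufaf4 with Atp5k.

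**Figure D1:**
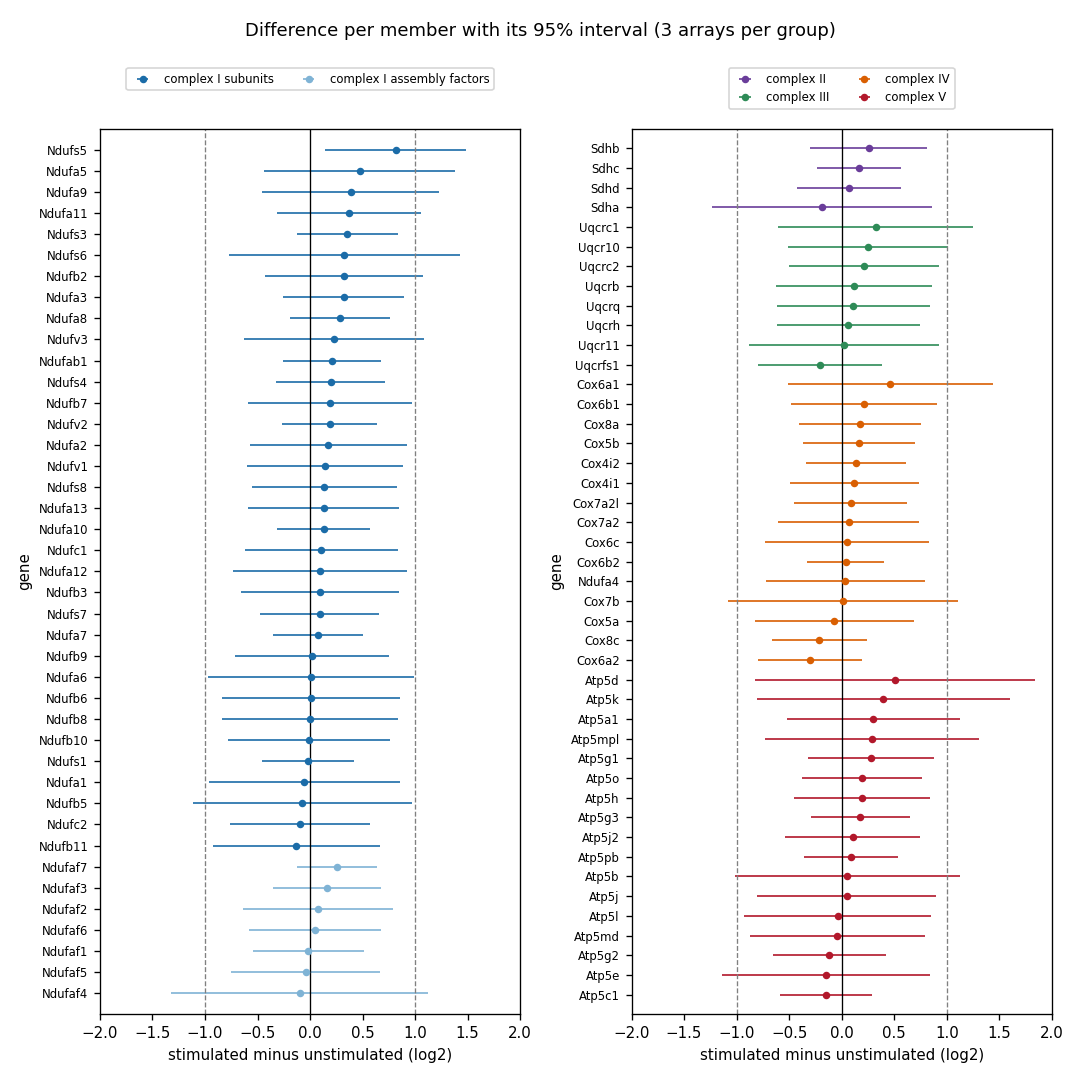
Log2 difference, stimulated minus unstimulated, for each of the 85 members (points) with its 95% interval from limma (lines, 3 arrays per group), by complex and in order of the difference; dashed lines mark a 2-fold change either way. The interval of Ndufs5 (0.14 to 1.48) is the one that leaves out 0, and 65 intervals lie between the dashed lines.

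Small positive differences were more frequent than negative ones. The stimulated mean was higher in 65 of 85 members (76.5%) and lower in 20, beside 51.0% higher among all genes and 56.8% among the 3195 genes with the highest mean level, which include 67 of the members. The median difference was 0.11 over the members, 0.005 over all genes and 0.05 over those 3195, while the median range within a group was 0.82 over the members. The sign of the median rested on single arrays. It was -0.04 without stimulated replicate 3 (32 members positive and 53 negative), -0.04 without unstimulated replicate 1 (38 positive and 47 negative) and 0.30 without stimulated replicate 1 (76 positive and 9 negative). Quantile normalisation once more gave a median of 0.05 with 56 members positive and 29 negative, and centring on array medians gave 0.07 with 58 and 27, beside -0.04 over all genes. No direction is therefore given for the group of members as a whole.

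On single arrays the median log2 intensity of the members was 7.99, 8.52 and 8.67 in stimulated replicates 1, 2 and 3, and 7.95, 8.60 and 8.22 in unstimulated replicates 1, 2 and 3. Stimulated replicate 3 was the highest array and unstimulated replicate 1 the lowest, with stimulated replicate 1 close to it, and the groups overlap. Median differences by complex were 0.13 for complex I subunits (27 of 34 positive), 0.05 for complex I assembly factors (4 of 7), 0.12 for complex II (3 of 4), 0.11 for complex III (7 of 8), 0.07 for complex IV (12 of 15) and 0.10 for complex V (12 of 17). The complexes thus lay within 0.09 of each other, less than the spread between replicates of the median of any of them.

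**Figure D2:**
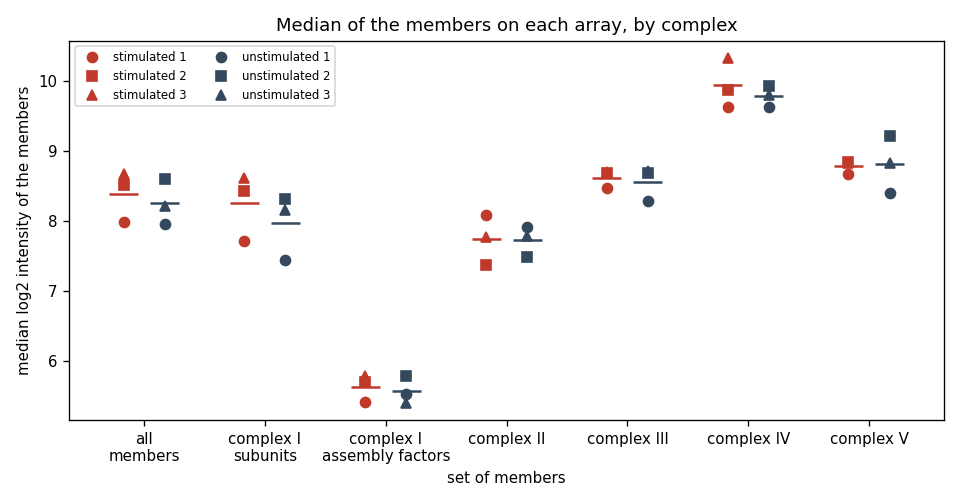
Median log2 intensity of the members on each array (symbols give the replicate number) and the mean of the 3 arrays (bar), for all members and by complex, stimulated left of unstimulated. The arrays numbered 1 have the lowest median of complex I subunits in both groups (7.72 stimulated, 7.44 unstimulated) and the highest median of complex II (8.08 stimulated, 7.91 unstimulated).

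Within complex I, the accessory subunit Ndufs5, which faces the intermembrane space, had the largest difference. Its log2 intensity was 7.69, 8.49 and 8.71 in stimulated replicates 1, 2 and 3, against 7.26, 7.61 and 7.57 in unstimulated replicates 1, 2 and 3. All 3 stimulated arrays lay above all 3 unstimulated ones, with stimulated replicate 1 only just above. The difference was 0.81 ± 0.29 (SE), or 1.76-fold (95% interval 1.10 to 2.80), with an unadjusted limma p of 0.0237 and an adjusted p of 0.999975 for probe set 10516211. It stayed positive, at 0.61 to 1.12, in all 18 other fits, with limma adjusted p values from 0.0869 upward. As its groups did not overlap, leaving out or weighting arrays could not turn this sign, and several other fits leave the estimate unchanged. The constant sign is therefore no added support. A further probe set annotated to both Ndufs5 and its pseudogene Ndufs5-ps was not used, and signal from that copy cannot be told apart here.

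The core of complex I, where NADH is oxidised and electrons run along iron-sulfur clusters, showed no member past the threshold. Ndufv1, which binds NADH, averaged 7.13 ± 0.50 in stimulated and 6.98 ± 0.43 in unstimulated cells (SD, n = 3 each), and Ndufs1, the largest iron-sulfur subunit, averaged 5.62 ± 0.27 in stimulated and 5.64 ± 0.05 in unstimulated cells. Their differences were 0.15 (95% interval -0.60 to 0.89) and -0.02 (-0.46 to 0.42). The core subunit Ndufs3 was at 8.07, 8.37 and 8.43 in stimulated cells, against 8.01, 7.63 and 8.15 in unstimulated cells, a difference of 0.36 (-0.12 to 0.83). Its 3 stimulated arrays reached higher, but the lowest of them was below the highest unstimulated one. All 6 core subunits measured had intervals within 2-fold, as did 20 of the 28 accessory subunits.

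Among the accessory subunits Ndufa5, of the arm that faces the matrix, was at 7.87, 9.0 and 8.78 in stimulated cells, against 7.46, 8.61 and 8.16 in unstimulated cells, a difference of 0.47 (95% interval -0.43 to 1.38). The groups overlap, since the stimulated replicate 1 lay below 2 unstimulated arrays. Ndufb11 of the membrane arm had the most negative difference of complex I, with 9.31 ± 0.47 in stimulated and 9.44 ± 0.54 in unstimulated cells (SD, n = 3 each) and a difference of -0.13 (-0.93 to 0.67). Ndufa1, a small subunit of the membrane arm, differed by -0.05.

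The complex I assembly factors are not part of the finished enzyme. Ndufaf7, a methyltransferase, was at 5.6, 5.71 and 5.68 in stimulated cells, against 5.54, 5.23 and 5.46 in unstimulated cells. The groups did not overlap, by a margin of less than 0.1 on the log2 scale, and the difference of 0.25 (95% interval -0.13 to 0.63) had an unadjusted limma p of 0.162. Ndufaf4, a factor of early assembly, was at 4.93, 6.29 and 5.68 in stimulated cells, against 5.02, 6.80 and 5.38 in unstimulated cells, and differed by -0.10 (-1.32 to 1.12). It varied more between arrays of a group than between the groups. Ndufaf2, a late assembly factor, differed by 0.08, and Ndufaf6, whose log2 intensity was 4.47 in stimulated and 4.42 in unstimulated cells, by 0.05.

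Complex II, succinate dehydrogenase, is also an enzyme of the tricarboxylic acid cycle and has no subunit from mitochondrial DNA. Sdha, the flavoprotein that oxidises succinate, was at 8.65, 6.96 and 7.81 in stimulated cells, against 8.50, 7.49 and 8.0 in unstimulated cells. In both groups replicate 1 was the highest and replicate 2 the lowest, and the difference was -0.19 (95% interval -1.24 to 0.86). The iron-sulfur subunit Sdhb differed by 0.26 (-0.30 to 0.82). The membrane anchors Sdhc and Sdhd differed by 0.16 (-0.23 to 0.56) and 0.07 (-0.42 to 0.57).

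In complex III the core proteins Uqcrc1 and Uqcrc2 differed by 0.32 (95% interval -0.60 to 1.25) and 0.22 (-0.50 to 0.93). Uqcrfs1, the Rieske iron-sulfur protein, was at 8.60, 8.76 and 8.28 in stimulated cells, against 8.38, 8.69 and 9.19 in unstimulated cells, and was the 1 member of the complex with a negative difference (-0.20, -0.79 to 0.38). That sign rested on unstimulated replicate 3, the highest of the 6 arrays, without which the difference was 0.01. The hinge protein Uqcrh averaged 11.88 ± 0.41 in stimulated and 11.82 ± 0.42 in unstimulated cells (SD, n = 3 each), and the small subunit Uqcr11 averaged 6.94 ± 0.67 and 6.91 ± 0.49. Intensities of different probe sets depend on their probes as well as on RNA, so these levels do not rank the genes.

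Complex IV has pairs of subunit isoforms with known tissue preferences, and both isoforms of 4 pairs were measured. Cox6a1, the isoform of most tissues, was at 10.86, 11.59 and 11.96 in stimulated cells, against 10.19, 11.55 and 11.27 in unstimulated cells, and had the most positive difference of the complex (0.46, 95% interval -0.51 to 1.44). Cox6a2, the isoform of heart and skeletal muscle, was at 4.86, 5.11 and 5.28 in stimulated cells, against 5.18, 5.27 and 5.71 in unstimulated cells, and had the most negative one of all 85 members (-0.30, -0.80 to 0.19). The 2 isoforms thus had differences of opposite sign, both with intervals that held 0, and the difference between them was not tested. Cox6a2 was dim, with means of 5.09 in stimulated and 5.39 in unstimulated cells, where the array medians over all genes were 5.63 to 5.80.

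The regulatory subunit Cox4i1 and its isoform Cox4i2, known from lung, differed by 0.12 (95% interval -0.49 to 0.73) and 0.14 (-0.34 to 0.61). Cox8a and the testis isoform Cox8c differed by 0.17 (-0.40 to 0.75) and -0.21 (-0.67 to 0.24). Cox8c averaged 4.23 in stimulated and 4.44 in unstimulated cells. It met the minimum intensity of the deposited values only through the unstimulated group, so its sign is not read. Cox6b1, with 11.93 ± 0.44 in stimulated and 11.73 ± 0.40 in unstimulated cells (SD, n = 3 each), and the testis isoform Cox6b2 differed by 0.21 and 0.04. Ubiquitous and tissue isoforms alike had intervals that held 0. The tissue isoforms Cox4i2, Cox6b2 and Cox8c were dim too, with group means from 4.23 to 5.33, and may hold little signal over background. Cox5a differed by -0.07, Cox7a2 by 0.07, Ndufa4 by 0.04 and Cox7a2l, listed as a supercomplex factor, by 0.09 (-0.45 to 0.63).

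In complex V the catalytic head is made of the alpha and beta subunits. Atp5a1 (alpha) was at 8.73, 7.74 and 8.69 in stimulated cells, against 8.55, 7.58 and 8.11 in unstimulated cells, and differed by 0.30 (95% interval -0.52 to 1.12). Atp5b (beta) was at 10.46, 8.79 and 9.96 in stimulated cells, against 10.26, 9.21 and 9.57 in unstimulated cells, and differed by 0.06 (-1.01 to 1.13). Both had their lowest value on replicate 2 of either group.

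The central stalk, which turns inside the head, had the widest range of differences. Atp5d (delta) was at 7.58, 6.50 and 8.47 in stimulated cells, against 7.83, 6.20 and 6.99 in unstimulated cells, with a difference of 0.51 (95% interval -0.83 to 1.84). Its interval was the widest of all members, and the difference was 0.03 without stimulated replicate 3 and 0.10 without unstimulated replicate 2. Atp5c1 (gamma) had the most negative difference of complex V at -0.15 (-0.59 to 0.29), and Atp5e (epsilon) had -0.15 (-1.14 to 0.84).

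The c ring, which carries the protons, is made from 3 genes that encode the same mature protein. Atp5g1 differed by 0.28 (95% interval -0.32 to 0.88), Atp5g2 by -0.12 (-0.66 to 0.42) and Atp5g3 by 0.18 (-0.30 to 0.65), so all 3 intervals lay within 2-fold. The 4 peripheral stalk members had differences from 0.05 to 0.20. Of the 5 small accessory subunits of the membrane part, Atp5md averaged 11.26 ± 0.50 in stimulated and 11.30 ± 0.56 in unstimulated cells (SD, n = 3 each), and the 5 differed by -0.04 to 0.40.

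**Figure D3:**
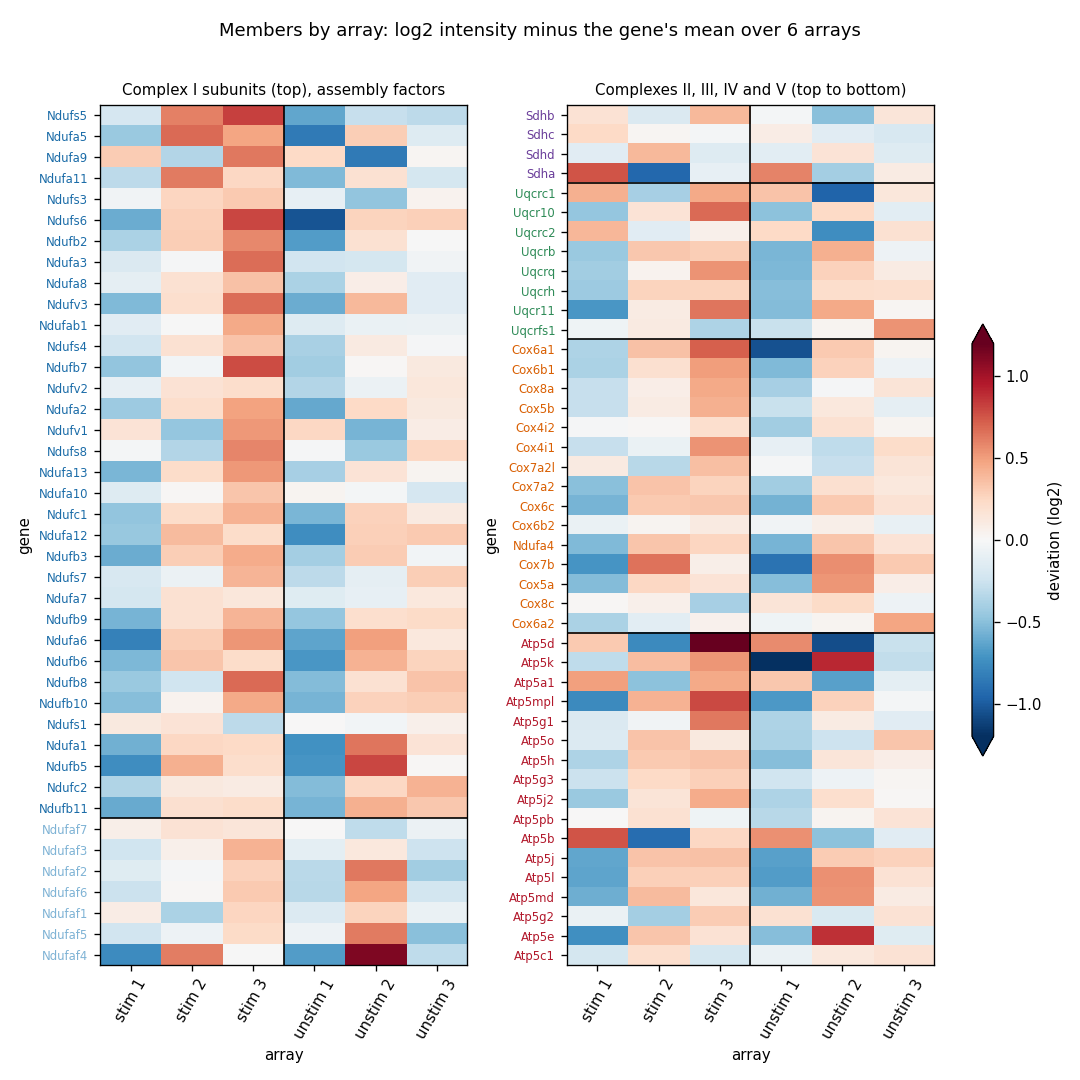
Log2 intensity of each member minus the mean of that gene over the 6 arrays (colour), with stimulated arrays left of unstimulated arrays and complexes set apart by lines. Arrays numbered 1 lie below arrays numbered 2 in both groups for 66 members and above them for 13, with Sdha, Uqcrc1, Atp5a1, Atp5b and Atp5d among the 13.

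Much of the variation between arrays of a group had the same pattern in both groups. Replicate 2 was above replicate 1 in both groups for 66 members (77.6%), below it in both for 13 (15.3%) and mixed for 6, beside 35.6% and 40.1% of all genes above and below in both. Of the 3195 genes with the highest mean level, 22.5% were above and 63.3% below in both. Across the 85 members the replicate 2 minus replicate 1 differences of the 2 groups had a Pearson's r of 0.875, against 0.737 across all genes and 0.836 across those 3195. Each of these points shares its 4 arrays with all others.

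The 13 members that were lower on replicate 2 in both groups were Sdha, Sdhb and Sdhc of complex II, Uqcrc1 and Uqcrc2 of complex III, Atp5a1, Atp5b, Atp5d and Atp5g2 of complex V, Ndufv1, Ndufs8 and Ndufa9 of complex I and Cox7a2l. The replicate 2 minus replicate 1 difference of Atp5b was -1.67 in stimulated and -1.05 in unstimulated cells, and that of Uqcrc1 was -0.82 and -1.31. At the other end, the small membrane subunit Atp5k had 0.67 in stimulated and 2.11 in unstimulated cells, Cox7b 1.36 and 1.44, and Ndufaf4 1.36 and 1.78. Of the 28 accessory subunits of complex I, 26 were higher on replicate 2 in both groups, but only 2 of its 6 core subunits were. Subunits of 1 enzyme thus moved in opposite directions between the same arrays, by up to 2.11 on the log2 scale for Atp5k, where the difference between stimulated and unstimulated cells reached 0.81 at most. The first is between single arrays and the second between group means, which vary less, so the sizes are not like measures. Length, RNA quality and the input of RNA per array are not in the files, and their part in this pattern was not tested.

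**Figure D4:**
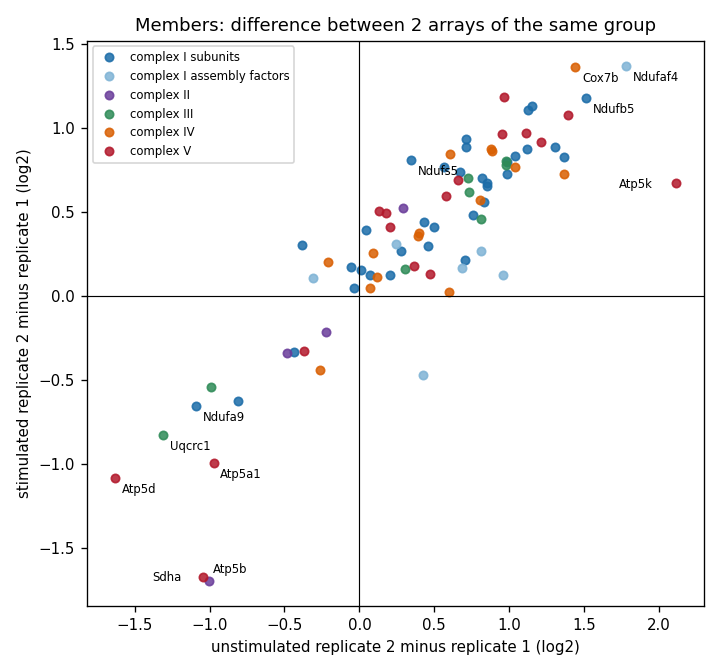
Difference between replicates 2 and 1 on the log2 scale within unstimulated cells (horizontal axis) and within stimulated cells (vertical axis), with 1 point for each of the 85 members coloured by complex. At the upper right lie 66 members and 13, with Sdha, Atp5b and Atp5d among them, at the lower left.

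For 17 members the table held more than 1 probe set, and their differences lay close together. In 13 of the 17 genes all probe sets had differences of 1 sign, and in the other 4 (Atp5l, Cox7a2l, Cox7b and Uqcr11) the differences lay near 0 on both sides. The largest gap between probe sets of a gene was 0.15, for Ndufc1. Atp5l, a small membrane subunit with 6 probe sets, ranged from -0.05 to 0.03. The annotation does not say which of these probe sets lie in near-identical copies of the gene, so gene and copy are not told apart.

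Other genes of the pathway, taken from fixed lists, had 0 members past the threshold in either direction. The genes named from these lists stand beside 2.07% of all genes higher and 1.42% lower at an unadjusted limma p under 0.05. Over all genes, 3.68% were higher and 3.46% lower without overlap of the groups. Of 29 further assembly factors of complexes I to V measured, 18 were positive and 11 negative, with a median of 0.07. Sco1, a copper chaperone of complex IV, was at 4.89, 4.73 and 5.12 in stimulated cells, against 5.33, 5.34 and 5.6 in unstimulated cells, and differed by -0.51 (unadjusted limma p 0.0248, adjusted p 0.999975). Coa3, which helps to build complex IV around its first core subunit, differed by 0.54 (unadjusted limma p 0.0527). The 3 stimulated values lay below all unstimulated values for Sco1 and above them for Coa3. These are the 2 of the 29 with the smallest p, so the pair is not read as a result about the list.

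Of 19 electron carriers and carriers of ADP, ATP and phosphate, 14 were positive and 5 negative, with a median of 0.09. Etfb, which brings electrons from fatty acid oxidation to ubiquinone, was at 6.51, 6.78 and 7.21 in stimulated cells, against 6.35, 5.63 and 6.22 in unstimulated cells, and differed by 0.77 (unadjusted limma p 0.0226, adjusted p 0.999975). The ADP and ATP exchanger gene Slc25a4 differed by 0.25 (95% interval -0.11 to 0.62). Cytochrome c (Cycs) differed by -0.20 and cytochrome c1 of complex III (Cyc1) by 0.19.

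Of the 15 genes of pyruvate dehydrogenase and the tricarboxylic acid cycle measured, 9 were positive and 6 negative, with a median of 0.05. Pdha1, the catalytic subunit of pyruvate dehydrogenase, was at 5.78, 5.68 and 5.82 in stimulated cells, against 5.91, 6.64 and 6.28 in unstimulated cells, and differed by -0.52 (unadjusted limma p 0.0474, adjusted p 0.999975). Idh2 of the cycle differed by -0.44. Glycolysis had 11 of 19 positive and a median of 0.08. Its smallest unadjusted limma p values were those of the pyruvate dehydrogenase kinases Pdk3 and Pdk2, which switch pyruvate dehydrogenase off. Pdk3 differed by 0.47 (unadjusted limma p 0.0836) and Pdk2 by 0.42 (unadjusted limma p 0.159).

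Of 17 regulators of mitochondrial biogenesis, 7 were positive and 10 negative, with a median of -0.04. Nrf1, the factor whose letters were searched above, was at 6.71, 6.01 and 6.34 in stimulated cells, against 7.05, 6.66 and 6.54 in unstimulated cells, and differed by -0.40 (95% interval -0.96 to 0.16). The groups overlap. Pprc1, a coactivator of the PGC-1 family, differed by -0.28, and Gabpa by -0.05. Among 7 mitochondrial antioxidant enzymes the median was 0.12, and Sod2, the manganese superoxide dismutase, differed by 0.63 (unadjusted limma p 0.0382, adjusted p 0.999975), with all stimulated values above all unstimulated ones, while the transhydrogenase Nnt differed by 0.36. For the subunits encoded in mitochondrial DNA, 2 genes with 2 probe sets each were measured, and the brighter probe set of each was used. COX2 was at 9.92, 11.28 and 11.03 in stimulated cells, against 9.83, 11.73 and 11.23 in unstimulated cells, and ND3 differed by 0.13. COX2 was lowest on replicate 1 and highest on replicate 2 in both groups, and 66 of the nuclear members were likewise higher on replicate 2 than on replicate 1 in both.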

How the data were processed

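Total RNA of sorted cells was labelled as biotinylated cDNA with a kit for picogram amounts and hybridised to 1-colour Affymetrix arrays, per the labels' protocols. The authors deposited linear intensity values made with Affymetrix Expression Console and RMA, per the submitters' processing notes, and the deposited values were turned into log2 here. The sources used here name neither versions nor settings. RMA normalises arrays to each other, which can remove a shift shared by most genes. In every probe set of the table the higher group geometric mean was at least 20.001, so members below that level in both groups are not analysed here. Of the members, 2 had an intensity under 20 on an array, and the mean of Cox8c reached the level only in unstimulated cells. Of 17551 probe sets, 13963 had 1 gene symbol, 970 several and 2618 none in the platform annotation; 110 with 1 symbol matched a member, and each gene was represented by its brightest probe set on average. A further 6 with a member symbol and another were left out. RefSeq lists 96 protein-coding genes with such symbols, of which 85 are the members; the other 11 were not analysed here.

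Differences (stimulated minus unstimulated) came from lmFit and eBayes of limma 3.58.1, run in R 4.3.3 on 12780 genes without covariates. Calls required an adjusted p (Benjamini-Hochberg) under 0.05. The fit was tested on simulated data with independent noise of the same size for all genes. These data held none of the variation that the real arrays shared by replicate number, so the test does not cover it. The members and the lists were chosen with earlier results of these data known. Named were, per complex, the members with the highest and lowest mean level and the most positive and negative difference, those with an unadjusted p under 0.05, 23 fixed genes that were measured and the 2 leading genes of each list. Ndufa5, Ndufa11, Ndufs3, Ndufc1, Cox6b2, Cd86, Epcam, Sirpa, Cd207, Atp5e, Atp5k, Cox7b, Atp5l, Cycs, Cyc1, Gabpa and the members lower on replicate 2 were named after their values were seen. Alternatives are given in the closing section. Python 3.11.15 and matplotlib 3.10.9 drew the figures. The number of arrays limits the precision.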

Additional observations from a re-analysis of the deposited data

How the results depend on the processing

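The count of called members was 0 higher and 0 lower in all 18 other fits, and in the reported fit also at an adjusted p under 0.1. Of all 12780 genes, 2 were called higher and 0 lower in the reported fit. With array weights 28 were called higher and 18 lower, and with the replicate block 30 and 8. In every fit with arrays left out 0 of all genes were called, so the 0 members there say nothing particular to the members. The smallest limma adjusted p of a named member was 0.0869 (Ndufs5, array weights). At an unadjusted p under 0.05, members higher numbered 1 in the reported fit, 0 after quantile normalisation once more, 8 with array weights (2 lower), 4 with the replicate block, 3 with the interquartile range as a covariate (1 lower), 0 without both arrays numbered 2 or 3 (0 lower), and 0 to 2 when each array was left out in turn. With array weights 11.4% of all genes were higher and 8.17% lower at that threshold, with the replicate block 6.78% and 3.60%, and with the covariate 3.90% and 4.01%. The covariate and the omission of both arrays of a number were chosen after seeing the data. The median of the complex I assembly factors was 0.35 with array weights, 0.28 without both arrays numbered 2 and -0.19 without both numbered 3, and ran from -0.10 to 0.26 with single arrays left out. That of complex III ran from -0.13 to 0.32 there, and that of all members from -0.04 to 0.30. The medians of complexes I, IV and V each turned negative without 2 of the 6 arrays, and that of complex II stayed between 0.06 and 0.21. Of 37 named members, 12 kept their sign in every alternative and 25 did not. Ndufs5 and Ndufaf7 kept theirs, but their groups did not overlap, so leaving out arrays could not turn it. Several alternatives also leave the estimate of most members unchanged. Cox8c was among the 12, though it met the minimum intensity only through the unstimulated group. The cause of these shifts was not tested. The labels give both groups the numbers 1 to 3 but no pairing. Deviations from the group means correlated with r of 0.727, 0.594 and 0.061 for numbers 1, 2 and 3 over all genes, and of 0.847, 0.765 and 0.119 over the members. The third pair was under 0.1 by the first measure and above it by the second. The block was an alternative because the labels give no pairing. Under that block Ndufs5 had an adjusted p of 0.163, and it was joined by Ndufa5, Cox6a1 and Ndufa11 at an unadjusted p under 0.05. Signal over background is not in the files and could not be used to judge dim members.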
